A study of Mus musculus with 13 samples.

Results

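Collagen chains are the 44 genes of the expression table whose symbol has the form Col, a type number, a and a chain number, out of 14911 genes in all. Hamstring muscle of female C57BL/6 mice was injured with cardiotoxin, a fibre-destroying venom protein, injected into the muscle at 0.32 mg/kg. From then on 9 mice received dexamethasone, a synthetic glucocorticoid, at 10 mg/kg by intraperitoneal injection once a day, and 4 mice received saline in the same way. Whole injured hamstring was taken on day 4, and polyadenylated RNA of each mouse gave 1 library. By the submitters' micro computed tomography just before harvest, every dexamethasone mouse had ectopic bone in the injured muscle, whereas saline mice entered the comparison only if they had none, and 1 was excluded for it. The drug and the presence of bone thus cannot be told apart here. All mice carried the injury, and uninjured muscle was not analysed here.

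Collagens are matrix proteins whose chains wind together as trimers, either of the same chain or of partner chains. Fibrillar types such as I and III form the load-bearing fibres of connective tissue, type IV forms the sheet of the basement membrane around fibres and vessels, and type VI forms beaded filaments next to that sheet. FACIT collagens (fibril-associated collagens with interrupted helices) decorate the surface of fibrils. Types II, IX, X and XI belong mainly to cartilage, and type X marks hypertrophic chondrocytes. In injured muscle the interstitial types come mostly from fibroblast-like progenitors, and a provisional matrix forms while fibres regenerate.

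Collagen messages were a small part of each library, and the ranges of their total overlapped between the groups. They took 1.64% to 2.28% of reads (median 2.04%) in dexamethasone mice and 1.38% to 2.19% (median 2.005%) in saline mice. Within that total, Col1a1, Col1a2 and Col3a1 together held 59.7% to 67.3% of collagen reads in dexamethasone mice and 68.7% to 71.4% in saline mice. These shares are a description, without a test. Of the 44 chains, 9 rose and 11 fell at an adjusted p under 0.05 (limma on log2 CPM, the log2 of counts scaled to library size, with Benjamini-Hochberg adjustment over all 14911 genes), and 24 did not pass. The called share of 45.5% stood beside 48.1% of all genes, with 25.2% higher and 22.9% lower. The median log2 fold change (dexamethasone minus saline) was -0.13 over the chains and 0.0071 over all genes. In 14 chains (31.8%) the groups did not overlap, against 25.8% of all genes. Dexamethasone mice lay above saline mice in 5 of these chains and below in 9, against 12.9% of all genes in either direction.

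**Figure D1:**
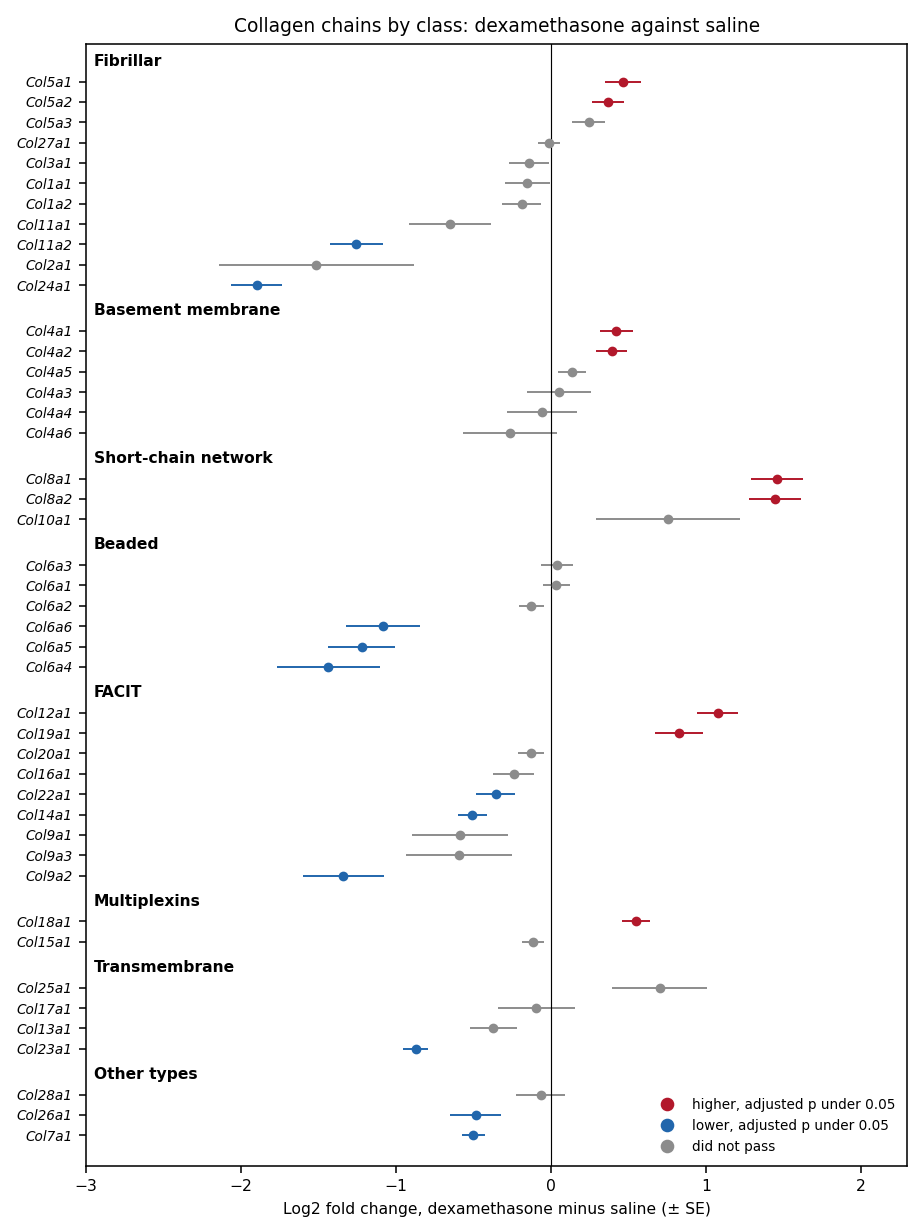
Log2 fold change of each collagen chain (dexamethasone, n = 9, minus saline, n = 4) with its standard error, ordered within its class. Chains that passed an adjusted p under 0.05 are red where higher and blue where lower; Col8a1, Col8a2 and Col12a1 lie farthest to the right, and Col24a1 farthest to the left, at -1.90.

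Short-chain network collagens had the highest median of the classes. Among fibrillar chains 2 of 11 rose and 2 fell (median log2 fold change -0.15), a median that was 0.14 under quantile normalisation. Among basement membrane chains 2 of 6 rose and 0 fell (median log2 fold change 0.094), a median that ran from 0.022 without saline mouse 3 to 0.23 without saline mouse 2. Over the 3 basement membrane chains that averaged 1 log2 CPM or more it was 0.39. Among short-chain network chains 2 of 3 rose and 0 fell (median log2 fold change 1.44). Of the beaded chains, 0 of 6 rose and 3 fell (median log2 fold change -0.61), a median that rests on scarce chains and was -0.046 over the 4 that averaged 1 log2 CPM or more. Among FACIT chains 2 of 9 rose and 3 fell (median log2 fold change -0.36), and among multiplexins, which carry many interruptions of the helix, 1 of 2 rose and 0 fell (median log2 fold change 0.22). Among transmembrane chains 0 of 4 rose and 1 fell (median log2 fold change -0.23), and among the remaining chains 0 of 3 rose and 2 fell (median log2 fold change -0.48). The 8 cartilage chains, drawn from several of these classes, had 0 higher and 2 lower (limma, adjusted p under 0.05), with a median of -0.62, and of -0.31 without saline mouse 3. Where a class had 0 calls in a direction, limma's unadjusted p was under 0.05 for 0 chains in that direction, apart from 1 higher transmembrane chain, and voom on the recovered reads also called 0.

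Called chains were mostly higher among the abundant and mostly lower among the scarce. Of the 17 chains averaging 6 log2 CPM or more, 7 rose and 1 fell. Of the 27 chains below that level, 2 rose and 10 fell. Over all genes the corresponding numbers were 819 higher and 770 lower of 2725 genes at or above that level, and 2941 and 2643 of 12186 below it. The level of 6 was chosen after the values were seen, and the split is a description without a test.

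Libraries held 25531487 to 34942266 reads over the 14911 genes. Mature fibre markers, among them Acta1, Ckm and Myh4, summed to 59759.9 to 90745 CPM in dexamethasone mice and 93944 to 142215 CPM in saline mice. The muscle label held in every library, and the sum, carried by abundant genes such as Acta1 and Myh4, was lower in every dexamethasone mouse. By gene, 0 of 8 rose and 2 fell, Pvalb and Casq1. Acta1, Ckm and Myh4 did not pass (limma, adjusted p 0.0672 to 0.0837), and Myh1 had a log2 fold change of 0.010. Fibroblast markers (Pdgfra, Dcn, Lum, Dpt, Pi16 and Pdgfrb) summed to 986 to 1047 CPM in dexamethasone mice and 1019 to 1335 CPM in saline mice, with 1 of 6 higher and 2 lower. Myoblast and myotube markers, 2 of 6 higher and 2 lower, summed to 2073 to 3256 CPM in dexamethasone mice and 3379 to 4426 CPM in saline mice. In whole muscle, fewer cells of a type and less RNA per cell cannot be told apart. Saline mice 1 and 3 and dexamethasone mouse 4 stood apart for several chains. Saline mouse 1 was the lowest saline mouse for 24 of the 44 chains. Collagen chains took 1.38% of its reads, against 1.99% to 2.19% in the other saline mice. Saline mouse 3 had the highest level of all 13 mice for 7 of the 8 cartilage chains, and dexamethasone mouse 4 was the mouse concerned in 6 of 13 outlying chain values. With saline mouse 3 and dexamethasone mouse 4 both left out, 11 of the 44 chains rose and 9 fell. Over all 14911 genes 3398 rose and 3024 fell in that fit.

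Promoter windows of the type IV, type VIII and type XXIV genes are shown first, because the type IV and type VIII pairs rose together and Col24a1 had the largest fall. The windows run from 250 bases before to 50 bases after each RefSeq start in GRCm38.p6. Capitals mark matches, on either strand, to any of 5 motifs. The CCAAT box was searched as CCAAT. The GC box was searched as GGGCGG, and the TATA box by the letters TATAAA. The letters for an AP-1 site were TGANTCA. The last motif, part of the site bound by the glucocorticoid receptor, was AGAACA.
Col4a1 promoter, GRCm38.p6 chr8:11312777-11313076, minus strand: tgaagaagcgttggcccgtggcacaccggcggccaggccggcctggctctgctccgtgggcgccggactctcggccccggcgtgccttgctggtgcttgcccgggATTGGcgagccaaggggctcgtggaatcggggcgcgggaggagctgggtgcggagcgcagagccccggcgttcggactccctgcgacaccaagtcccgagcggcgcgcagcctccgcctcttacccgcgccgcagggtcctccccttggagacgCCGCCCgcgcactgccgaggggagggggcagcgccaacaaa
Col4a2 promoter, GRCm38.p6 chr8:11312555-11312854, plus strand: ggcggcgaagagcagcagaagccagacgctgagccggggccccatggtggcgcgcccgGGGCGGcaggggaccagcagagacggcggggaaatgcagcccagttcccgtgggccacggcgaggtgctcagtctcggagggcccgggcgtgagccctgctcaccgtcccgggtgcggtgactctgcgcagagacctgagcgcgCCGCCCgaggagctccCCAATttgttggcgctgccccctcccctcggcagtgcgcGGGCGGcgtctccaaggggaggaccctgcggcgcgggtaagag
Col8a1 promoter, GRCm38.p6 chr16:57754688-57754987, minus strand: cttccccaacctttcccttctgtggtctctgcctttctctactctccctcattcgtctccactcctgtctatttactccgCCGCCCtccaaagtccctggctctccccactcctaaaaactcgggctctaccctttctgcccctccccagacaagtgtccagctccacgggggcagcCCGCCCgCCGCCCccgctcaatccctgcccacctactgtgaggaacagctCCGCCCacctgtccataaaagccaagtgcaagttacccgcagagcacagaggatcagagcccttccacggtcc
Col8a2 promoter, GRCm38.p6 chr4:126286544-126286843, plus strand: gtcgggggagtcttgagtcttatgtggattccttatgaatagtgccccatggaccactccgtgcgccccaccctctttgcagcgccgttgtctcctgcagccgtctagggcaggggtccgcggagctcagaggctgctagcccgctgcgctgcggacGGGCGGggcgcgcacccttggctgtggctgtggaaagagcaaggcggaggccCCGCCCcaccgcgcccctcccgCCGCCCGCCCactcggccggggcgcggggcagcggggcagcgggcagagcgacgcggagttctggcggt
Col24a1 promoter, GRCm38.p6 chr3:145292222-145292521, plus strand: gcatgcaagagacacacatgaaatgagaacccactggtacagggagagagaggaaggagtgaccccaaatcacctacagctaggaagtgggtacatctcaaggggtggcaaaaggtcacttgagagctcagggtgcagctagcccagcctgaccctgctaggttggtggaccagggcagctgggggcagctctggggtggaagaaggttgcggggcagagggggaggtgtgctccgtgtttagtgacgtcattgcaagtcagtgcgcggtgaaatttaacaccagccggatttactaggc

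Col4a1 and Col4a2 lie head to head on chromosome 8 and their annotated starts are 21 bases apart, so the windows share 78 bases on opposite strands. The Col4a1 window held 1 CCAAT box and 1 GC box, and the Col4a2 window 1 CCAAT box and 3 GC boxes. The GC box of the Col4a1 window is 1 of those 3, read on the other strand within the shared bases. Col8a1 and Col8a2, on chromosomes 16 and 4, both held 4 matches to the GC box, some of them overlapping in Col8a2, and no CCAAT box. The Col24a1 window held none of these letters. Among 38 windows of 35 collagen genes, 23 held a GC box, against 35.7% of all 32851 windows. A CCAAT box stood in 13 of them, against 37.4% of all windows. The receptor motif stood in 2, those of Col20a1 and Col9a1, against 19.0% of all windows. The TATA box stood in 5, against 13.6% of all windows, and the AP-1 site in 1, that of Col6a1, against 7.81%. A match is a description of letters, not a binding site.

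The major interstitial chains did not pass the test. Col1a1 and Col1a2 encode the chains of type I, the main collagen of fibrous tissue, and Col3a1 the chain of type III, which is prominent in early repair. Col1a1 stood at 11.82 to 12.51 (median 12.24) log2 CPM in dexamethasone mice and at 11.90, 12.36, 12.49 and 12.54 in saline mice 1, 2, 3 and 5. The groups overlapped, with dexamethasone mouse 4 lowest and saline mouse 1 next. Its log2 fold change was -0.15 ± 0.15 (SE), with a 95% interval of -0.46 to 0.16 and an adjusted p of 0.412 (limma). Col1a2 stood at 10.98 to 11.58 (median 11.35) in dexamethasone mice and 11.11, 11.54, 11.60 and 11.62 in saline mice. Saline mouse 1 was again well below the other saline mice, and the log2 fold change was -0.19 ± 0.13 (95% interval -0.46 to 0.078). Col3a1 stood at 12.10 to 12.65 (median 12.39) in dexamethasone mice and 12.22, 12.76, 12.45 and 12.64 in saline mice, a log2 fold change of -0.14 ± 0.13 (95% interval -0.42 to 0.14). These intervals include 0 and leave room for a difference down to -0.46 for Col1a1. Their sign depended on the scaling, since quantile normalisation gave 0.18 for Col1a1, 0.14 for Col1a2 and 0.29 for Col3a1. Without saline mouse 1 the values were -0.29 (adjusted p 0.0991) for Col1a1, -0.31 (adjusted p 0.0501) for Col1a2 and -0.24 (adjusted p 0.145) for Col3a1 (limma). Without saline mouse 5 Col1a1 stood at -0.080, without saline mouse 3 at -0.10, and without saline mouse 2 Col3a1 stood at -0.060.

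Of the type V chains, which join type I in mixed fibrils and limit fibril diameter, Col5a1 and Col5a2 rose. Col5a1 stood at 9.89 to 10.46 (median 10.30) log2 CPM in dexamethasone mice and 9.41, 9.79, 9.79 and 10.02 in saline mice. Saline mouse 5 reached into the dexamethasone range, and the others lay below it. Col5a1 was 1.38-fold higher (log2 fold change 0.46 ± 0.12, SE; adjusted p 0.00359, limma) and Col5a2 1.29-fold higher (0.37 ± 0.10, adjusted p 0.00747). Col5a3, a minor type V chain, differed by 0.24 ± 0.11 on the log2 scale (adjusted p 0.0700, limma). It passed without dexamethasone mouse 7 (adjusted p 0.0475) or 8 (adjusted p 0.0356) and without saline mouse 2 (adjusted p 0.0148), but was 0.14 (adjusted p 0.283) without saline mouse 1. Col5a2 and Col3a1 are neighbours on chromosome 1 (mm10), pointing towards each other across 24.6 kb, yet Col5a2 passed and Col3a1 did not.

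The minor fibrillar chains Col24a1 and Col11a2 fell. Col24a1, a fibrillar collagen described in developing bone and cornea (chromosome 3, 145292472 to 145552011), stood at 1.59 to 2.75 (median 2.35) log2 CPM in dexamethasone mice and 4.17, 4.44, 4.42 and 4.00 in saline mice. Every dexamethasone mouse lay below every saline mouse, and dexamethasone mouse 4 was lowest. Col24a1 was 3.73-fold lower (log2 fold change -1.90 ± 0.17, adjusted p 5.48e-07, limma), and -1.80 on the log2 scale without dexamethasone mouse 4. Col11a2, a type XI chain of cartilage fibrils, stood at 2.74 to 3.42 (median 3.04) in dexamethasone mice and 4.22, 4.09, 5.06 and 3.96 in saline mice, again without overlap. It was 2.39-fold lower (-1.26 ± 0.17, adjusted p 2.69e-05). Its partner Col11a1 differed by -0.65 ± 0.26 on the log2 scale (adjusted p 0.0539, limma), and -0.28 (adjusted p 0.298) without saline mouse 3. Col11a1 passed without saline mouse 1 (-0.79, adjusted p 0.0378) or 2 (-0.85, adjusted p 0.0237), and without dexamethasone mouse 3 (-0.71, adjusted p 0.0380) or 6 (-0.72, adjusted p 0.0364). Col27a1, a fibrillar chain of cartilage and tendon, had a log2 fold change of -0.011 ± 0.070 (95% interval -0.16 to 0.14).

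The common type IV chains of the basement membrane rose together. Col4a1 and Col4a2 form the trimer found in basement membranes of most tissues. Col4a1 (chromosome 8, 11198423 to 11312826) stood at 9.21 to 9.95 (median 9.37) log2 CPM in dexamethasone mice and 8.96, 9.21, 8.91 and 9.03 in saline mice. Col4a2 (chromosome 8, 11312805 to 11449287) stood at 8.63 to 9.30 (median 8.81) in dexamethasone mice and 8.44, 8.67, 8.41 and 8.45 in saline mice. For both, dexamethasone mouse 4 was highest, saline mouse 2 was the highest saline mouse, and of the dexamethasone mice mouse 8 alone lay below it. Col4a1 was 1.34-fold higher (0.42 ± 0.11, adjusted p 0.00442, limma) and Col4a2 1.31-fold higher (0.39 ± 0.10, adjusted p 0.00386). Without dexamethasone mouse 4 the log2 fold changes were 0.36 and 0.34. Endothelial markers, 1 of 7 higher and 1 lower, summed to 269 to 313 CPM in dexamethasone mice and 273 to 322 CPM in saline mice, and mural cell markers, 1 of 6 higher, to 444 to 488 CPM in dexamethasone mice and 401 to 483 CPM in saline mice. Dexamethasone mouse 4, highest for both chains, was also highest of its group for the endothelial sum, with 313 CPM against 269 to 299 CPM in the other dexamethasone mice. The part of these cells in the type IV values was not tested.

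The restricted type IV chains did not pass. Col4a5 differed by 0.14 ± 0.092 on the log2 scale (adjusted p 0.235, limma) and passed without saline mouse 2 (0.24, adjusted p 0.0426), but was 0.090 (adjusted p 0.492) without saline mouse 5. Col4a3 (0.052 ± 0.20), Col4a4 (-0.059 ± 0.23) and Col4a6 (-0.27 ± 0.30) were scarce, at 33 to 125 reads per library. Col18a1, whose product is a heparan sulphate proteoglycan of basement membranes and the source of endostatin, stood at 7.24 to 7.50 (median 7.44) log2 CPM in dexamethasone mice and 6.53, 6.77, 6.92 and 7.16 in saline mice. The groups did not overlap, and Col18a1 was 1.46-fold higher (0.55 ± 0.089, adjusted p 0.000128, limma). Col15a1, the other multiplexin, which links basement membranes to fibrils in muscle and capillaries, had a log2 fold change of -0.12 ± 0.069 (95% interval -0.26 to 0.030).

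The type VIII chains had the largest rises among collagens. Type VIII is a short-chain network collagen of vessel walls and of corneal and stromal basement layers, and its chains resemble that of type X. Col8a1 (chromosome 16, 57624258 to 57754737) stood at 7.70 to 8.36 (median 7.96) log2 CPM in dexamethasone mice and 6.22, 6.17, 6.75 and 7.14 in saline mice. Col8a2 stood at 5.03 to 5.95 (median 5.65) in dexamethasone mice and 3.83, 3.76, 4.47 and 4.64 in saline mice. In both, every dexamethasone mouse lay above every saline mouse, and saline mouse 5 came nearest. Col8a1 was 2.75-fold higher (1.46 ± 0.17, adjusted p 5.69e-06, limma) and Col8a2 2.72-fold higher (1.44 ± 0.17, adjusted p 6.85e-06). Leaving out any single mouse gave 1.33 to 1.65 for Col8a1 and 1.31 to 1.60 for Col8a2.

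**Figure D2:**
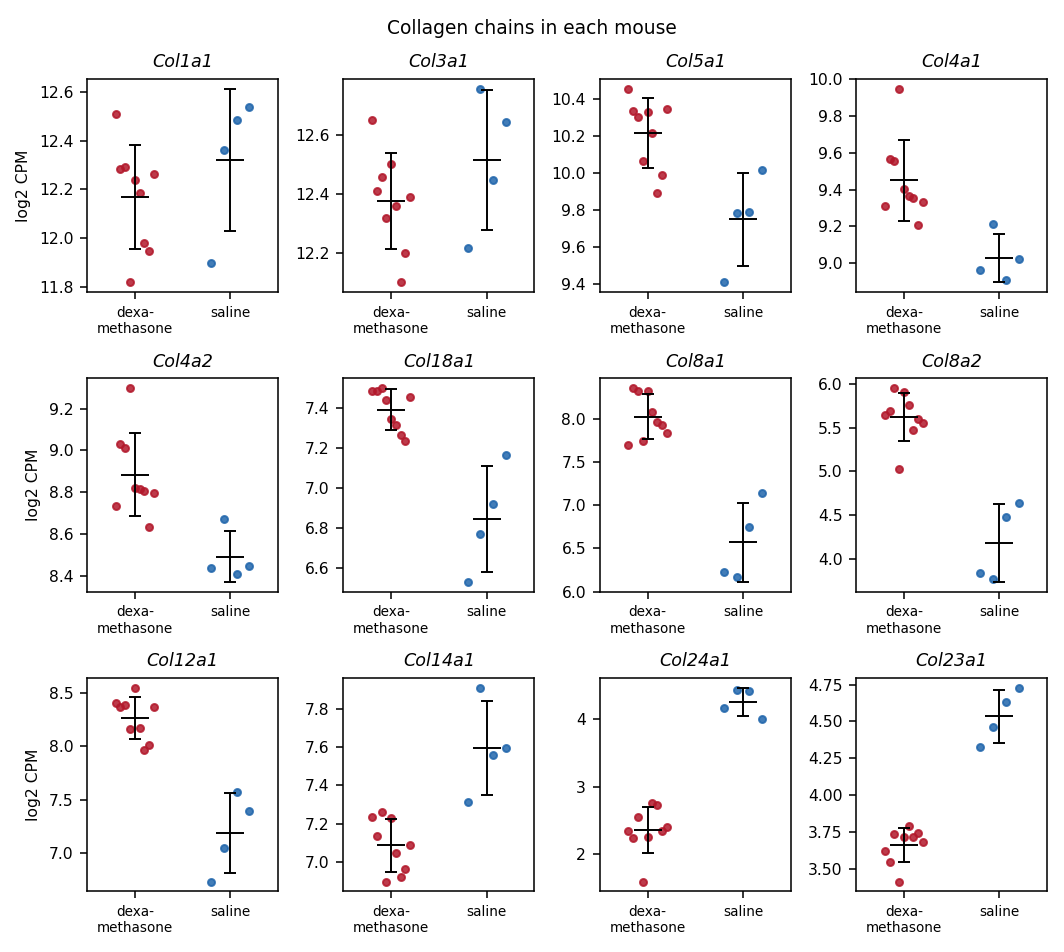
Log2 CPM of 12 collagen chains in each mouse (points), with group mean and SD; dexamethasone mice (n = 9) are red and saline mice (n = 4) blue. Each panel has its own axis: Col1a1 and Col3a1 overlap between groups, Col8a1, Col8a2, Col12a1 and Col18a1 lie higher in every dexamethasone mouse, and Col14a1, Col23a1 and Col24a1 lower.

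The beaded type VI chains divided into the common trimer and the chains of the chromosome 9 cluster. Col6a1, Col6a2 and Col6a3 encode the common trimer of the muscle interstitium, and mutations in their human counterparts cause muscle disease. Col6a1 stood at 8.41 to 8.92 (median 8.78) log2 CPM in dexamethasone mice and 8.53, 8.84, 8.59 and 8.78 in saline mice, which overlapped, with a log2 fold change of 0.035 ± 0.087 (95% interval -0.15 to 0.22). Col6a3 had 0.039 ± 0.10 (95% interval -0.18 to 0.25) and Col6a2 -0.13 ± 0.082 (95% interval -0.30 to 0.046). The alternative chains, which can take the place of Col6a3 in the trimer, all fell. Col6a5 stood at -0.091 to 1.04 (median 0.38) in dexamethasone mice and 1.33, 2.32, 1.34 and 1.75 in saline mice, 2.33-fold lower (-1.22 ± 0.22, adjusted p 0.000263, limma). Col6a6 stood at 1.25 to 2.87 (median 2.71) in dexamethasone mice and 3.35, 4.15, 3.59 and 3.48 in saline mice, 2.12-fold lower (-1.09 ± 0.24, adjusted p 0.00155). Dexamethasone mouse 4 was far below the others for Col6a6, and the change was -0.92 without it. Col6a4, at 7 to 32 reads in dexamethasone mice and 31 to 39 in saline mice, was 2.71-fold lower (-1.44 ± 0.33, adjusted p 0.00234), and -0.59 with 1 CPM added before the log. In these 3 genes no dexamethasone mouse reached a saline mouse, and the genes follow each other on the same strand with gaps of 28.8 and 27.9 kb.

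FACIT collagens moved in opposite directions. Col12a1, whose product binds type I fibrils and is abundant in tendon and in loaded or healing tissue (chromosome 9, 79598991 to 79718831), stood at 7.96 to 8.55 (median 8.36) log2 CPM in dexamethasone mice and 6.73, 7.05, 7.57 and 7.39 in saline mice. Col14a1, a close relative on the same fibrils, stood at 6.90 to 7.26 (median 7.09) in dexamethasone mice and 7.31, 7.91, 7.56 and 7.59 in saline mice. Neither overlapped between groups. Col12a1 was 2.11-fold higher (1.08 ± 0.13, adjusted p 1.14e-05, limma), whereas Col14a1 was 1.42-fold lower (-0.51 ± 0.093, adjusted p 0.000373). Col19a1, a minor FACIT chain made in differentiating muscle, stood at 3.38 to 4.18 (median 3.74) in dexamethasone mice and 2.56, 2.64, 3.36 and 3.29 in saline mice. The groups did not overlap, though dexamethasone mouse 1 lay just above saline mouse 3. Col19a1 rose 1.77-fold (0.83 ± 0.15, adjusted p 0.000438). Tendon markers (Tnmd, Scx, Mkx, Thbs4, Fmod and Kera), 2 of 6 higher and 2 lower, summed to 1229 to 1584 CPM in dexamethasone mice and 738 to 935 CPM in saline mice, so their sum was higher in every dexamethasone mouse. Most of that sum was Thbs4, which averaged 10.26 log2 CPM in dexamethasone mice and 9.42 in saline mice. Thbs4 (log2 fold change 0.83) and Scx (0.86) rose, whereas Tnmd (-0.92) and Kera (-1.32) fell. The part of tendon cells in the Col12a1 rise was not tested.

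Col22a1, a FACIT chain of the myotendinous junction, differed by -0.36 ± 0.13 on the log2 scale (adjusted p 0.0274, limma), a call that ended without saline mouse 1 (-0.34, adjusted p 0.0633) or 3 (-0.25, adjusted p 0.129) and with both saline mouse 3 and dexamethasone mouse 4 left out (-0.23, adjusted p 0.169). Col16a1 had -0.24 ± 0.13 (adjusted p 0.141, limma) and passed without saline mouse 1 (-0.37, adjusted p 0.0294), but was -0.14 (adjusted p 0.431) without saline mouse 5. Col20a1 had -0.13 ± 0.082 (adjusted p 0.209, limma) and passed without saline mouse 5 (-0.22, adjusted p 0.0216), but was -0.066 (adjusted p 0.566) without saline mouse 2.

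Several cartilage chains were scarce, and saline mouse 3 stood above the other mice. Col2a1, the main chain of cartilage fibrils, stood at -1.50 to -0.089 (median -0.97) log2 CPM in dexamethasone mice and 0.34, -0.63, 3.87 and -0.67 in saline mice. That is 10 to 28 reads in dexamethasone mice, 418 in saline mouse 3 and 15 to 32 in the other saline mice. Its log2 fold change of -1.52 ± 0.63 (adjusted p 0.0577, limma) became -0.47 (adjusted p 0.323) without saline mouse 3. It passed without saline mouse 2 (-1.97, adjusted p 0.0283) or 5 (-1.98, adjusted p 0.0236). Saline mouse 3 also had 327 reads of Ibsp, a bone matrix protein, against 0 to 26 in dexamethasone mice and 0 to 1 in the other saline mice. It had 81 reads of Acan, the cartilage proteoglycan, against 7 to 37 in dexamethasone mice and 7 to 27 in the other saline mice. Saline mouse 3 had the most reads of all mice for 2 of 5 chondrocyte markers, Acan and Chad, but not for Sox9, Matn3 or Comp. Of the osteoblast markers Ibsp, Sp7, Dmp1 and Phex, 0 of 4 rose and 1 fell. They summed to 3.49 to 5.97 CPM in dexamethasone mice and 4.45 to 22.7 CPM in saline mice. Saline mouse 3 held the top of that range and had the most reads of all mice for 3 of 4, Phex being the exception. The marker that fell was Sp7, a transcription factor of osteoblasts. It had 8 to 27 reads in dexamethasone mice, 181 in saline mouse 3 and 80 to 149 in the other saline mice. On the log2 scale Dmp1 (0.69, adjusted p 0.0553, limma), Phex (0.37) and Ibsp (-0.21) did not pass. The part of cartilage or bone cells in the collagen values was not tested.

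**Figure D3:**
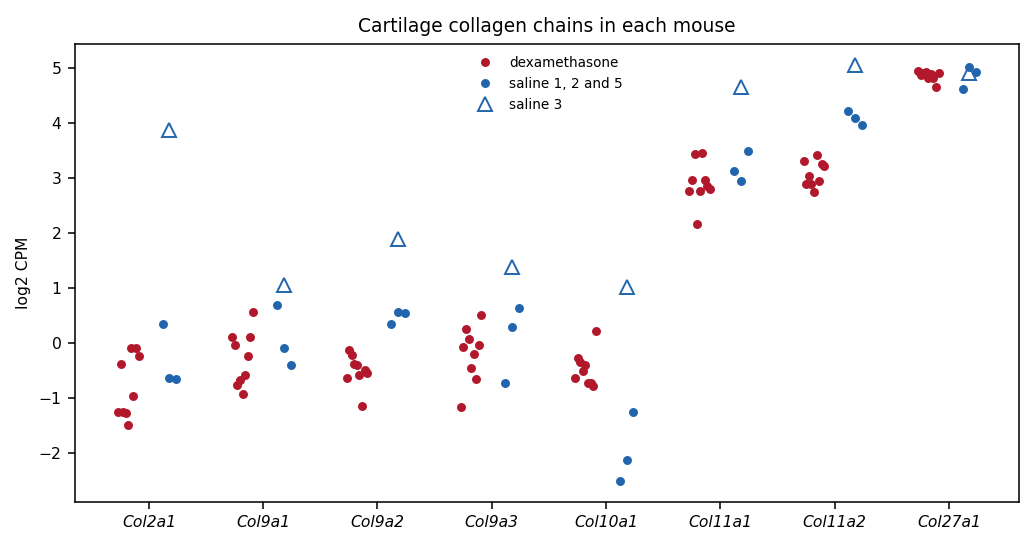
Log2 CPM of the 8 cartilage collagen chains in each mouse; red points are dexamethasone mice (n = 9), blue points saline mice 1, 2 and 5, and open triangles saline mouse 3. The triangles are the highest of all mice in 7 of 8 chains, Col27a1 being the exception.

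Col10a1, the marker of hypertrophic cartilage, stood at -0.79 to 0.22 (median -0.52) log2 CPM in dexamethasone mice and -2.52, -2.13, 1.01 and -1.27 in saline mice. Saline mouse 3 was highest of all, and the other 3 saline mice, with 4 to 13 reads, lay below every dexamethasone mouse, with 17 to 36 reads. The log2 fold change was 0.76 ± 0.46 (adjusted p 0.192, limma), and 1.501 (adjusted p 0.000965) without saline mouse 3, but 0.33 (adjusted p 0.595) without saline mouse 1 and 0.45 (adjusted p 0.491) without saline mouse 2.

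Type IX is a FACIT collagen of cartilage fibrils. Col9a2 had 14 to 30 reads in dexamethasone mice and 32 to 105 in saline mice, without overlap in log2 CPM. It was 2.53-fold lower (-1.34 ± 0.26, adjusted p 0.000626, limma), and -0.99 (adjusted p 0.00229) without saline mouse 3. With 1 CPM added before the log the difference was -0.73, still past the threshold. Its partner Col9a1 differed by -0.59 ± 0.31 on the log2 scale (adjusted p 0.129, limma) and passed without saline mouse 5 (-0.83, adjusted p 0.0461), but was -0.34 (adjusted p 0.421) without saline mouse 3. Col9a3 had -0.59 ± 0.34 (adjusted p 0.163, limma) and passed without saline mouse 1 (-0.97, adjusted p 0.0222), but was -0.26 (adjusted p 0.557) without saline mouse 3. Of the 8 cartilage chains 2 fell, Col9a2 and Col11a2, and 6 did not pass. The median log2 fold change was -0.88 without saline mouse 1. Leaving out each mouse in turn gave 0 to 1 higher and 2 to 4 lower. Chondrocyte markers (Acan, Sox9, Matn3, Comp and Chad), 1 of 5 higher, summed to 45.3 to 68.1 CPM in dexamethasone mice and 47.2 to 74.3 CPM in saline mice.

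Among transmembrane collagens and the remaining types, the called chains fell. Col23a1, a membrane-anchored collagen that can be shed, stood at 3.41 to 3.79 (median 3.71) log2 CPM in dexamethasone mice and 4.32, 4.46, 4.63 and 4.73 in saline mice, without overlap and with little spread. It was 1.83-fold lower (-0.87 ± 0.081, adjusted p 9.71e-07, limma). Col7a1, of the anchoring fibrils under epithelia, stood at 4.13 to 4.50 (median 4.36) in dexamethasone mice and 4.73, 4.82, 5.03 and 4.74 in saline mice, 1.42-fold lower (-0.50 ± 0.073, adjusted p 5.41e-05). Epidermal markers Krt5, Krt14, Krt10 and Trp63, 1 of 4 higher, summed to 19.7 to 29.8 CPM in dexamethasone mice and 16.2 to 22.4 CPM in saline mice. Trp63, which made up most of that sum, was the marker that rose (log2 fold change 0.45). The keratins Krt5 (-0.24), Krt14 (-0.18) and Krt10 (-0.34) pointed down and did not pass. Col26a1 stood at 3.01 to 4.01 (median 3.73) in dexamethasone mice and 3.82, 3.82, 4.50 and 4.52 in saline mice, where the groups overlapped. It was 1.40-fold lower (-0.48 ± 0.17, adjusted p 0.0237, limma), a call lost without saline mouse 3 (-0.37, adjusted p 0.102) or 5 (-0.37, adjusted p 0.0987) and with saline mouse 3 and dexamethasone mouse 4 both left out (-0.29, adjusted p 0.0917).

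Col13a1, a transmembrane collagen of the neuromuscular junction, differed by -0.37 ± 0.15 on the log2 scale (adjusted p 0.0538, limma). It passed without dexamethasone mouse 1, 2, 4 or 6, with adjusted p-values from 0.0364 to 0.0470 (limma), but was -0.24 (adjusted p 0.128) with dexamethasone mouse 4 and saline mouse 3 both left out. Col25a1, which takes part in motor innervation of muscle, had 0.70 ± 0.31 (adjusted p 0.0689, limma). It passed without dexamethasone mouse 4 (0.88, adjusted p 0.00355) or saline mouse 3 (0.90, adjusted p 0.0370), and dexamethasone mouse 4 had 12 reads of it against 30 to 56 in the other dexamethasone mice. Col17a1, of epithelial hemidesmosomes, had -0.094 ± 0.25 (95% interval -0.62 to 0.43), and Col28a1, found beside peripheral nerve, -0.066 ± 0.16 (95% interval -0.40 to 0.27). Schwann cell markers, 1 of 6 higher and 1 lower, summed to 199 to 280.0 CPM in dexamethasone mice and 265 to 323 CPM in saline mice.

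Levels can be set against each other only per length, here as CPM per kilobase of the longest coding transcript. Col3a1 led with 961 ± 107 in dexamethasone mice and 1063 ± 170.3 in saline mice (SD, n = 9 and 4), followed by Col1a1 with 784 ± 114 in dexamethasone mice and 876 ± 162 in saline mice and Col1a2 with 469.6 ± 64.3 in dexamethasone mice and 536 ± 82.1 in saline mice. In both groups Col3a1 and Col1a1 differed by more than either SD, a difference that was not tested. The next chains, Col5a1, Col6a2, Col5a2, Col4a1, Col6a1 and Col6a3, lay between 83.7 and 142 CPM per kilobase in dexamethasone mice and between 79.2 and 147 in saline mice, and many neighbours in that order were closer than their SDs. In dexamethasone mice Col5a1 was first of these, and in saline mice Col6a2. Col8a1 reached 51.9 ± 9.32 in dexamethasone mice and 19.3 ± 6.34 in saline mice, and so stood above Col15a1 in dexamethasone mice (29.8) and below it in saline mice (32.2).

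**Figure D4:**
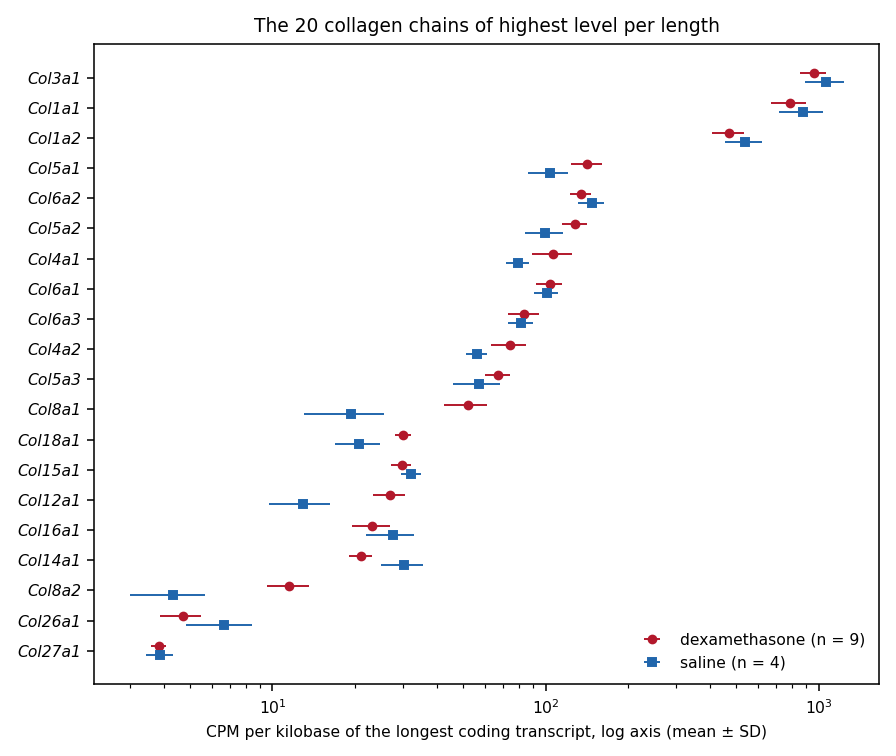
CPM per kilobase of the longest coding transcript (log axis) for the 20 collagen chains of highest level in dexamethasone mice, as mean and SD over 9 dexamethasone mice (red circles) and 4 saline mice (blue squares). Col3a1, Col1a1 and Col1a2 lie well above the rest, and Col8a1, Col8a2 and Col12a1 show the widest gaps between groups.

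Whether partner chains kept their proportion was asked from the log2 ratio of 2 chains within each mouse, which does not depend on library scaling. Of 19 pairs, 8 differed between groups at an adjusted p under 0.05 (two-sided exact permutation test over every split of the 13 mice, adjusted over the 19 pairs; the smallest p is 0.0014). The number was 5 to 11 when each mouse was left out. For most chains of the same trimer the difference did not pass. The Col1a1 to Col1a2 ratio was 0.89 ± 0.035 in dexamethasone mice and 0.85 ± 0.060 in saline mice (SD, n = 9 and 4; exact permutation, adjusted p 0.266). Col4a1 to Col4a2 was 0.57 ± 0.036 in dexamethasone mice and 0.54 ± 0.031 in saline mice (exact permutation, adjusted p 0.266), although both chains had risen. Col8a1 to Col8a2 was 2.41 ± 0.20 in dexamethasone mice and 2.39 ± 0.090 in saline mice (exact permutation, adjusted p 0.931). The ratio of Col6a3 to Col6a1 differed by 0.0038 (exact permutation, adjusted p 0.931). That of Col1a1 to Col3a1, chains of different types and not of the same trimer, differed by -0.013 (exact permutation, adjusted p 0.931).

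Other pairs changed their proportion, and 5 of them passed in every setting tried and did not overlap between groups. Col6a1 to Col6a2, chains of the same trimer, was -0.57 ± 0.035 in dexamethasone mice and -0.73 ± 0.049 in saline mice, a small shift of 0.16 (exact permutation, adjusted p 0.00531). Col6a6 to Col6a3, alternative chains of type VI, shifted by -1.13 (exact permutation, adjusted p 0.00531). The Col12a1 to Col14a1 ratio was 1.18 ± 0.10 in dexamethasone mice and -0.41 ± 0.39 in saline mice, a shift of 1.59 (exact permutation, adjusted p 0.00531). Every dexamethasone mouse lay above every saline mouse for Col12a1 and below every saline mouse for Col14a1. The separation of this ratio was therefore fixed by the chain values and adds no evidence to them. Col15a1 to Col18a1, the pair of multiplexins, shifted by -0.66 and Col1a1 to Col12a1 by -1.23, at the same adjusted p of 0.00531 (exact permutation). Col18a1, Col12a1 and Col6a6 had each passed without overlap, whereas Col15a1, Col1a1 and Col6a3 had not passed. The shifts of these pairs therefore largely restate the calls of single chains.

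The other 3 ratios past the threshold were lost when some single mice were left out. Col1a1 to Col4a1, interstitial against basement membrane, was 2.72 ± 0.36 in dexamethasone mice and 3.29 ± 0.30 in saline mice (exact permutation, adjusted p 0.0310). Dexamethasone mouse 4 lay far below the others for it, and the call ended without saline mouse 3 (-0.48, exact permutation, adjusted p 0.141) or 5 (-0.50, adjusted p 0.0936), and also without dexamethasone mouse 2, 3, 7 or 8 (adjusted p 0.0537 to 0.0597). In those 4 cases the shift was -0.58 to -0.56, against -0.58 over all mice. Col5a1 to Col5a2 shifted by 0.10 and Col11a1 to Col11a2 by 0.61, both at an exact permutation adjusted p of 0.0498. With each mouse left out in turn the adjusted p ran from 0.0128 to 0.123 for the type V pair (exact permutation) and from 0.0345 to 0.163 for the type XI pair. Among these fits the type V pair passed only without dexamethasone mouse 4. The type XI pair passed only without dexamethasone mouse 1 or 4 or saline mouse 3 or 5. The type V call was also lost with group medians (exact permutation, adjusted p 0.124). Col4a1 to Col4a5 shifted by 0.29 (exact permutation, adjusted p 0.0505), Col9a2 to Col9a3 by -0.74 (adjusted p 0.0502) and Col5a3 to Col5a1 by -0.22 (adjusted p 0.0531). Each of these passed without dexamethasone mouse 4, among other mice for Col9a2 to Col9a3. For Col1a1 to Col6a1 (-0.19), Col4a5 to Col4a6 (0.40) and Col4a3 to Col4a4 (0.11) the adjusted p was 0.283, 0.289 and 0.880 (exact permutation).

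**Figure D5:**
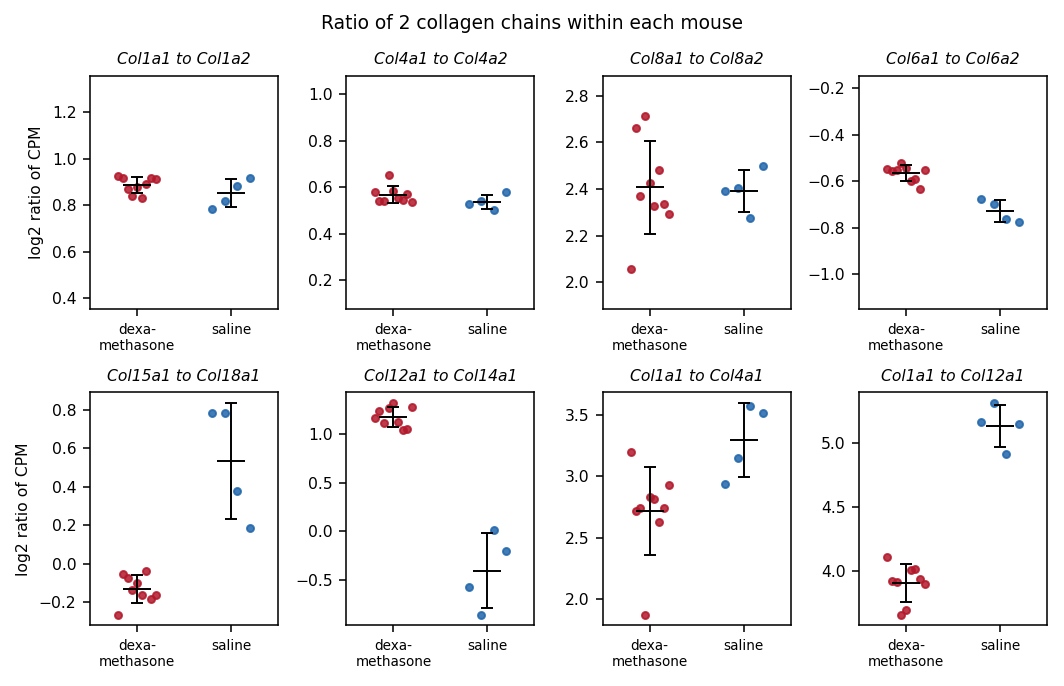
Log2 ratio of 2 collagen chains within each mouse (points; CPM of the first over the second), with group mean and SD, in 9 dexamethasone mice (red) and 4 saline mice (blue). Col1a1 to Col1a2, Col4a1 to Col4a2 and Col8a1 to Col8a2 overlap between groups, whereas Col6a1 to Col6a2, Col15a1 to Col18a1, Col12a1 to Col14a1 and Col1a1 to Col12a1 do not.

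Across the 9 dexamethasone mice, the chains of 8 chosen pairs varied together. Unrelated chains were not compared, so the values do not show a trait particular to partner chains. Col4a1 and Col4a2 had a Pearson r of 0.990 and the same rank order (Spearman rho 1, exact permutation p 5.51e-06), and Col1a1 and Col1a2 an r of 0.988. For Col6a1 and Col6a2 r was 0.994 and for Col5a1 and Col5a2 0.946. The looser pairs were Col8a1 with Col8a2 (r 0.719, rho 0.667), Col15a1 with Col18a1 (r 0.808), Col1a1 with Col3a1 (r 0.824) and Col6a3 with Col6a1 (r 0.909). Spearman rho was 0.950 for Col1a1 and Col1a2, 1 for Col6a1 and Col6a2, 0.850 for Col5a1 and Col5a2, 0.767 for Col15a1 and Col18a1, 0.833 for Col1a1 and Col3a1 and 0.733 for Col6a3 and Col6a1. Over these 8 pairs the exact permutation p adjusted over the pairs was at most 0.0169 for r and 0.0589 for rho, both for Col8a1 and Col8a2. Without the 2 mice farthest from the median of the first chain, r was 0.503 for Col6a3 and Col6a1, 0.664 for Col15a1 and Col18a1 and 0.715 for Col8a1 and Col8a2. For the other 5 pairs it was 0.818 to 0.988. The chains of a mouse share its library and scaling, and saline mice were too few for such values.

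Many genes of collagen assembly rose. Of 29 measured genes for hydroxylation, folding, cleavage and cross-linking of collagen, 17 rose and 0 fell (limma; median log2 fold change 0.23), against 25.2% of all genes higher. At an unadjusted p under 0.05 limma had 0 lower, and voom called 16 higher and 0 lower. Lox, a lysyl oxidase that starts cross-linking, averaged 9.10 ± 0.24 log2 CPM in dexamethasone mice and 7.01 ± 0.30 in saline mice (SD, n = 9 and 4) and was 4.25-fold higher. Its relatives Loxl4 and Loxl3 were 3.16- and 2.25-fold higher. Adamts14, which trims the amino end of procollagen, was 1.60-fold higher, Plod3, a lysyl hydroxylase, 1.48-fold and P3h4, of a lysyl hydroxylation complex, 1.40-fold. With each mouse left out 14 to 18 of these genes rose and 0 to 1 fell. With library sizes unscaled 22 rose, but 5256 of all 14911 genes were then higher and their median log2 fold change was 0.12. With quantile normalisation 14 rose, against 3493 of all genes.

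Of 9 measured collagen receptors, 5 rose and 2 fell, with a median log2 fold change of 0.24, against 25.2% of all genes higher and 22.9% lower. Itgb1, the shared beta subunit of collagen-binding integrins, averaged 9.17 ± 0.053 log2 CPM in dexamethasone mice and 8.77 ± 0.091 in saline mice and was 1.32-fold higher. The collagen-sensing kinases Ddr2 and Ddr1 were 1.26- and 1.25-fold higher. Lair1, an inhibitory collagen receptor of leukocytes, was 1.56-fold lower. Adjusted p-values of these 10 assembly and receptor genes ran from 1.89e-08 for Loxl4 to 0.00567 for Ddr1 (limma).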

How the data were processed

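Members and gene lists were chosen with earlier results of these data known, so no count over them is independent evidence. Each mouse's log2 CPM values were deposited, and so were a log2 fold change and p-values from the authors' limma comparison. featureCounts 2.0.1, limma 3.50.1 and the build mm10 are named in the submitters' processing notes. No source used here states the aligner. The table normalised without the excluded saline mouse (14911 genes) was used, and 1 column of values, of that mouse, was not used. The deposited log2 values equal log2 of reads plus 0.5 over a scaled library size, so 100% of values gave whole reads within 0.01. Among 42 library pairs within a group, reads differed beyond sampling noise (chi-square per gene at least 7.22), and each library counted as 1 sample.

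Libraries held 28021111 to 34942266 reads in dexamethasone mice and 25531487 to 32537345 in saline mice. The labels number separate mice. Groups were compared with limma 3.58.1 (R 4.3.3), a linear model with trended moderation, two-sided, over all genes. Folds of low chains depend on the 0.5 offset. All 44 chains were tested, 33 of them averaging 1 log2 CPM or more. In the authors' deposited table the same 44 calls were made. Full values are given for the 14 called chains of largest change that averaged 0 log2 CPM or more and for 8 chosen chains. Of assembly and receptor genes the 6 and 4 of smallest adjusted p are named. Coordinates and lengths come from GENCODE on the same build, and promoter windows from RefSeq. Overlap with exons of other genes was at most 6.07% of a chain's exon bases. The kit marks strand, but no source used here gives the strand setting of the counting. The steps were tested on simulated data. Figures were drawn with matplotlib 3.10.9.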

Additional observations from a re-analysis of the deposited data

Results flagged for a closer look

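Single mice stood far from the rest of their group in 13 of 88 sets of chain values, where chance gives about 1 in 20. In dexamethasone mouse 4 this held for 6 chains. Col4a1 had 9.95 log2 CPM there, against 9.21 to 9.57 in the other dexamethasone mice. Col6a6 had 1.25 log2 CPM there, against 2.52 to 2.87 in the other dexamethasone mice. Col13a1 had 1.52 log2 CPM there, against 2.03 to 2.52 in the other dexamethasone mice. Col24a1 had 1.59 log2 CPM there, against 2.24 to 2.75 in the other dexamethasone mice. Col25a1 had -1.16 log2 CPM there, against -0.043 to 0.80 in the other dexamethasone mice. Col26a1 had 3.01 log2 CPM there, against 3.61 to 4.01 in the other dexamethasone mice. It also held for 6 ratios of that mouse. The log2 ratio of Col1a1 to Col3a1 was -0.50, against -0.26 to -0.12 in the other dexamethasone mice. The log2 ratio of Col4a1 to Col4a2 was 0.65, against 0.54 to 0.59 in the other dexamethasone mice. The log2 ratio of Col4a1 to Col4a5 was 5.61, against 4.91 to 5.22 in the other dexamethasone mice. The log2 ratio of Col6a6 to Col6a3 was -8.52, against -7.23 to -6.66 in the other dexamethasone mice. The log2 ratio of Col1a1 to Col4a1 was 1.87, against 2.63 to 3.20 in the other dexamethasone mice. The log2 ratio of Col1a1 to Col6a1 was 2.90, against 3.45 to 3.64 in the other dexamethasone mice. Endothelial markers summed to 313 CPM in dexamethasone mouse 4, against 269 to 299 CPM in the other dexamethasone mice, and myoblast and myotube markers to 2073 CPM, against 2627 to 3256 CPM. The other 8 marker lists of that mouse lay within the range of its group, and the part of these cells was not tested.

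In other dexamethasone mice, Col9a2 was -1.16 log2 CPM in mouse 7 against -0.64 to -0.13 in the rest, Col10a1 was 0.22 log2 CPM in mouse 9 against -0.79 to -0.28 in the rest, Col27a1 was 4.65 log2 CPM in mouse 8 against 4.81 to 4.96 in the rest. Among saline mice, Col1a2 was 11.11 log2 CPM in mouse 1 against 11.54 to 11.62 in the rest, Col4a2 was 8.67 log2 CPM in mouse 2 against 8.41 to 8.45 in the rest, Col9a2 was 1.89 log2 CPM in mouse 3 against 0.34 to 0.56 in the rest, Col17a1 was 0.82 log2 CPM in mouse 1 against 1.40 to 1.496 in the rest.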

How the results depend on the processing

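Of 20 called chains, 18 kept their call in each of the 26 settings that tested them, Col22a1 and Col26a1 being the exceptions, and no called value reversed. Counts stayed between 9 and 11 higher and between 8 and 14 lower, the 8 coming from a filter at a mean log2 CPM of 1 that removes 11 chains. Library sizes without scaling moved the median of all genes to 0.12 on the log2 scale and gave 11 chains higher and 9 lower, ending Col22a1 (adjusted p 0.110, limma) and Col26a1 (adjusted p 0.114). Over all genes that scaling gave 5256 higher and 2001 lower, against 3760 and 3413. Leaving out each mouse gave 9 to 11 chains higher and 9 to 13 lower, and 5 to 11 of 19 ratios past the threshold. Over all genes those fits gave 3357 to 3767 higher and 2949 to 3409 lower. In those fits the smallest p of the ratio test rises to 0.00202 or 0.00455. Leaving out dexamethasone mouse 4 and saline mouse 3 together was chosen after seeing the data. Chains outside the called set passed in some settings for 11 of 24. Mouse numbers 1, 2, 3 and 5 occur in both groups, but same-numbered mice did not vary together (correlations of deviations -0.070 to 0.12). A replicate block on those 8 mice gave 10 higher and 13 lower, and 10 and 10 without the block. Over all genes the block gave 3054 higher and 2905 lower, against 3154 and 2970 without it. Depth limits the chains with few reads, such as Col2a1, Col10a1 and Col6a4.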
